A study of Mus musculus with 46 samples.

Results

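Gene expression in the BNST (bed nucleus of stria terminalis) of ethanol-exposed mice was compared between 72 h and 0 h after the end of exposure, using every probeset of the deposited array table. The members were the 12 arrays whose labels give chronic intermittent ethanol (CIE) with collection at 72 h (6 mice) or at 0 h (6 mice), of 46 arrays in the series, each from 1 mouse. All mice were adult male C57BL/6J. CIE mice had gone through 4 cycles of ethanol vapor (10 to 13 mg/l of air, 16 hours per day for 4 days), with 7 days of abstinence after each cycle before the next, and were given ethanol (1.6 g/kg) and pyrazole (1 mmol/kg) by injection before a cycle. Control (Ctrl) mice breathed air in like chambers after saline and the same pyrazole, an inhibitor of alcohol dehydrogenase that both arms therefore share, and their 6 mice at 72 h and 6 at 0 h are used here to show what the same interval did without ethanol. The 0 h mice were killed as they left the chamber. Values are log2 probeset levels, and a fold change is 2 raised to the log2 change. Beside the 2 groups compared, levels at 8 h (6 CIE mice) and 7 d (4 CIE mice) are given as a description. The 0 h and 72 h groups differ in everything that 3 days outside the chamber changed, so the time since ethanol and the time since handling, injection and chamber housing cannot be told apart within the CIE mice alone.

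The BNST is a largely GABAergic node of the extended amygdala that links stress hormones, arousal and motivation, and it is studied for its part in the negative state of ethanol withdrawal. Glucocorticoids, released from the adrenal gland under stress, act through a receptor that binds DNA and switches on genes for fat handling, energy saving and feedback control, and ethanol intoxication and withdrawal are known to raise them. Interferon signalling, Notch signalling and the folding machinery of the endoplasmic reticulum are other systems whose target genes make their state visible in RNA.

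The tissue label was checked against genes that define the BNST. Of 16 such genes written down, 14 had a named probeset, and all 14 lay above the median probeset level, from the 62.0th percentile (Oprk1) and the 68.9th (Pdyn) to the 99.5th (Gad1). Levels of different probesets are not strictly comparable, and Gad1 and Penk are also high in other GABAergic regions, so the check shows that the genes are present and does not set the BNST apart from its neighbours. The 12 arrays had medians of 6.78 to 6.79, and any pair of them correlated at 0.987 to 0.998 across probesets.

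At 72 h, 2735 of 45037 probesets (6.07%) differed from 0 h in CIE mice at an adjusted p of 0.01 or less (limma, Benjamini-Hochberg over all probesets), 1642 higher and 1093 lower. Without CIE 72 h replicate 63, 1065 were higher and 881 lower. Counted by gene, with the brightest probeset standing for each of 18193 genes, 1288 (7.08%) passed: 774 were higher at 72 h (4.25%) and 514 lower (2.83%). The change was modest for most of them, with a median size of 0.30 on the log2 scale, but the large changes were nearly all falls: 27 genes fell by more than 2-fold and 4 rose by more than that. In 1581 genes (8.69%) the 2 groups of 6 mice did not overlap. The same interval in Ctrl mice moved 78 probesets (0.173%; 49 without Ctrl 0 h replicate 56) and 46 genes (0.253%). The 2 time changes differed from each other for 445 probesets (0.988%) and 227 genes (1.25%), and 219 of those 227 were also called in the CIE mice. Of the 46 Ctrl genes, 31 were called in CIE mice too, all in the same direction, which is 67.4% of the Ctrl list and 2.41% of the CIE list.

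**Figure D1:**
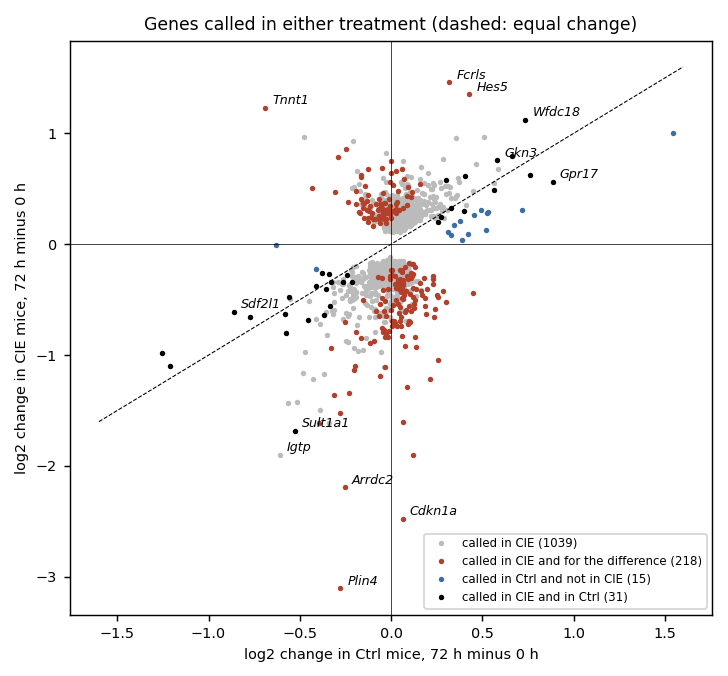
Each point is a gene called in at least 1 treatment; the horizontal axis is its log2 change from 0 h to 72 h in Ctrl mice and the vertical axis that in CIE mice, each from 6 mice per group. Points coloured red (218 genes) changed differently in the 2 treatments and spread along the vertical axis, with Plin4 and Cdkn1a at the bottom, while the 31 black points were called in both and lie in the quadrants of equal sign.

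Glucocorticoid-responsive genes had the largest share of called members among the 43 gene lists counted. The lists were chosen with earlier results of these data known, so this rank and share are a description only. Of 30 measured, 25 were lower at 72 h and 0 higher, against 2.83% of all genes lower, and the median change of the list was -0.71, where the median over all genes was 0.03. In Ctrl mice 2 of the 30 were called, Mt1 and Sult1a1, both lower, where 0.253% of all genes were called. The list's median change in Ctrl mice was -0.07. The time changes of the 2 treatments differed for 17 of the 30, where 1.25% of all genes differed. As a mean over the 30 genes, the level of a 0 h CIE mouse lay between 10.11 and 10.32 (median 10.16), and that of a 72 h CIE mouse between 9.23 and 9.37 (median 9.30). Ctrl mice lay at 9.39 to 9.65 at 0 h and 9.34 to 9.70 at 72 h. All 0 h CIE mice were thus above, and 5 of the 6 CIE mice of 72 h below, every one of the 12 Ctrl mice. The number of members called stayed between 24 and 26 when any 1 of 24 arrays was left out.

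Plin4, which coats lipid droplets, had the largest change of any gene. Its level was 9.86 to 10.66 (median 10.14) in 0 h CIE mice and 6.87 to 7.30 (median 7.10) at 72 h. The lowest 0 h mouse was far above the highest 72 h mouse. Plin4 fell by 3.10 ± 0.17 on the log2 scale (SE, n = 6 and 6; adjusted p = 3.7e-17, limma), an 8.60-fold drop, while the Ctrl change was -0.28 (adjusted p = 0.52) and the difference between the treatments -2.83 (adjusted p = 2.3e-10). Cdkn1a, which encodes an inhibitor of the cell cycle, lay at 9.92 to 10.60 (median 10.08) at 0 h and 7.52 to 7.93 (median 7.75) at 72 h. Again the groups were far apart, and the 72 h mice were inside or below the range of the Ctrl mice (7.75 to 8.19 at 0 h, 7.69 to 8.18 at 72 h). Cdkn1a fell by 2.48 ± 0.13 (adjusted p = 2.2e-17), with a Ctrl change of 0.06, and its other probeset also fell.

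Sgk1, a kinase that raises the number of ion channels and transporters at the cell surface, stood at 12.84 to 13.16 (median 12.95) at 0 h and 11.19 to 11.75 (median 11.28) at 72 h, without overlap. It fell by 1.61 ± 0.13 (adjusted p = 5.1e-12), against a Ctrl change of -0.40 (adjusted p = 0.20). Its level in 72 h CIE mice was below that of the Ctrl mice of that time, whose range was 11.65 to 12.52, in all mice but 1. Sgk1 is shown by sequence because 1 of its 6 annotated starts carries a complete pair of the hexamers that the glucocorticoid receptor binds as a dimer. The letters searched were AGAACA and, on the other strand, TGTTCT, alone or as AGAACA and TGTTCT with 3 bases between. The full pair was found in 3 of 32851 RefSeq promoter windows (0.00913%; 250 bases before to 50 after a start), and 1 of the 3 is Sgk1, with the match 189 bases before the start. A single hexamer was in 19.0% of all windows and in 6 of 29 windows (20.7%) of the called members, from 4 of 20 genes with a window (Sgk1, Tsc22d3, Sult1a1 and Bcl6). The hexamers are in capitals here, and the pair in Sgk1 overlaps a match to the heat shock core GAANNTTC.
Sgk1, chr10:21993689-21993727, + strand: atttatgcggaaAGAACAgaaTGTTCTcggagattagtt
Tsc22d3, chrX:140600690-140600719, - strand: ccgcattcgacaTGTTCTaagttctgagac

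Tsc22d3 encodes GILZ, an anti-inflammatory leucine zipper protein. It ranged from 11.70 to 11.99 (median 11.81) at 0 h and from 11.00 to 11.22 (median 11.05) at 72 h. The groups were apart, with a fall of 0.74 ± 0.08 (adjusted p = 5.6e-09) and a Ctrl change of 0.01. Of its 3 further probesets 1 fell as well and 1 had the opposite sign without being called. Fkbp5, a co-chaperone that dampens the receptor it is induced by, was at 10.12 to 10.55 (median 10.33) at 0 h and at 9.41 to 9.79 (median 9.66) at 72 h. It fell by 0.69 ± 0.08 without overlap (adjusted p = 2.1e-08; Ctrl change 0.00), and 1 of its 2 other probesets fell while the other had an uncalled change of opposite sign. At 72 h its lowest level in CIE mice (9.41) was still above the median of the Ctrl mice (9.33).

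Other members of the list with large falls had varied roles. Arrdc2, an arrestin-domain gene, fell by 2.19 ± 0.16. Pdk4, a kinase that inhibits pyruvate dehydrogenase, fell by 1.52 ± 0.14. Ddit4, an inhibitor of the growth kinase mTOR, fell by 1.36 ± 0.11. None of the 3 overlapped between the CIE groups, their adjusted p were 1.1e-13, 8.8e-11 and 1.3e-12, and all 3 differed from Ctrl in their time change. Among transcription factors, Zbtb16 (named after its value was seen) fell by 1.29 ± 0.15, Cebpd by 1.13 ± 0.11 and Klf15 by 0.65 ± 0.09. Htra1, a secreted protease, fell by 0.83 ± 0.06 (adjusted p = 3.3e-14; Ctrl change 0.06), and Nfkbia, the inhibitor of NF-kB, by 0.78 ± 0.08 with all 4 of its other probesets called the same way. Sult1a1, a sulfotransferase for phenols, fell in both treatments, by 1.68 ± 0.11 in CIE and by 0.53 in Ctrl mice (adjusted p = 0.0090), and more in CIE mice (difference -1.16, adjusted p = 4.5e-06). The 5 members that did not pass were Errfi1 (-0.33, adjusted p = 0.011), Tiparp (-0.27, 0.017), the clock gene Per1 (-0.22, 0.13), Mertk (-0.14, 0.14) and Lcn2 (0.06, 0.86).

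**Figure D2:**
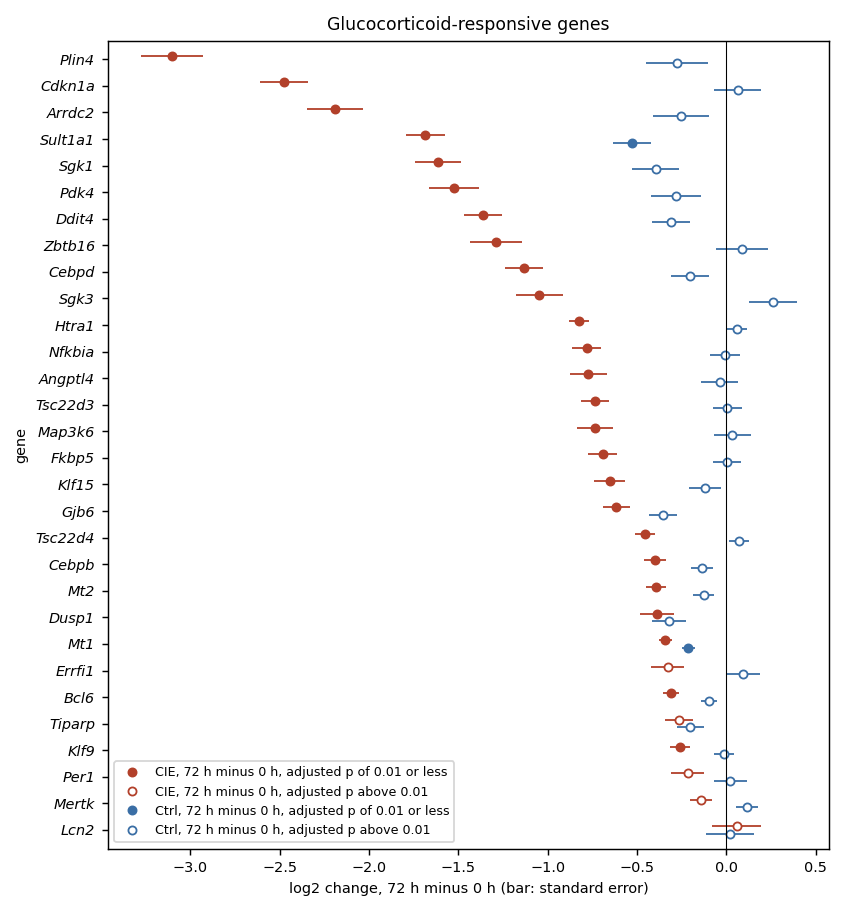
Log2 change from 0 h to 72 h (horizontal axis, bars are standard errors) for the 30 glucocorticoid-responsive genes in CIE (red) and Ctrl (blue) mice; filled points passed an adjusted p of 0.01. The CIE points reach -3.10 and 25 are filled, while the Ctrl points stay between -0.53 and 0.26 and 2 are filled.

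**Figure D3:**
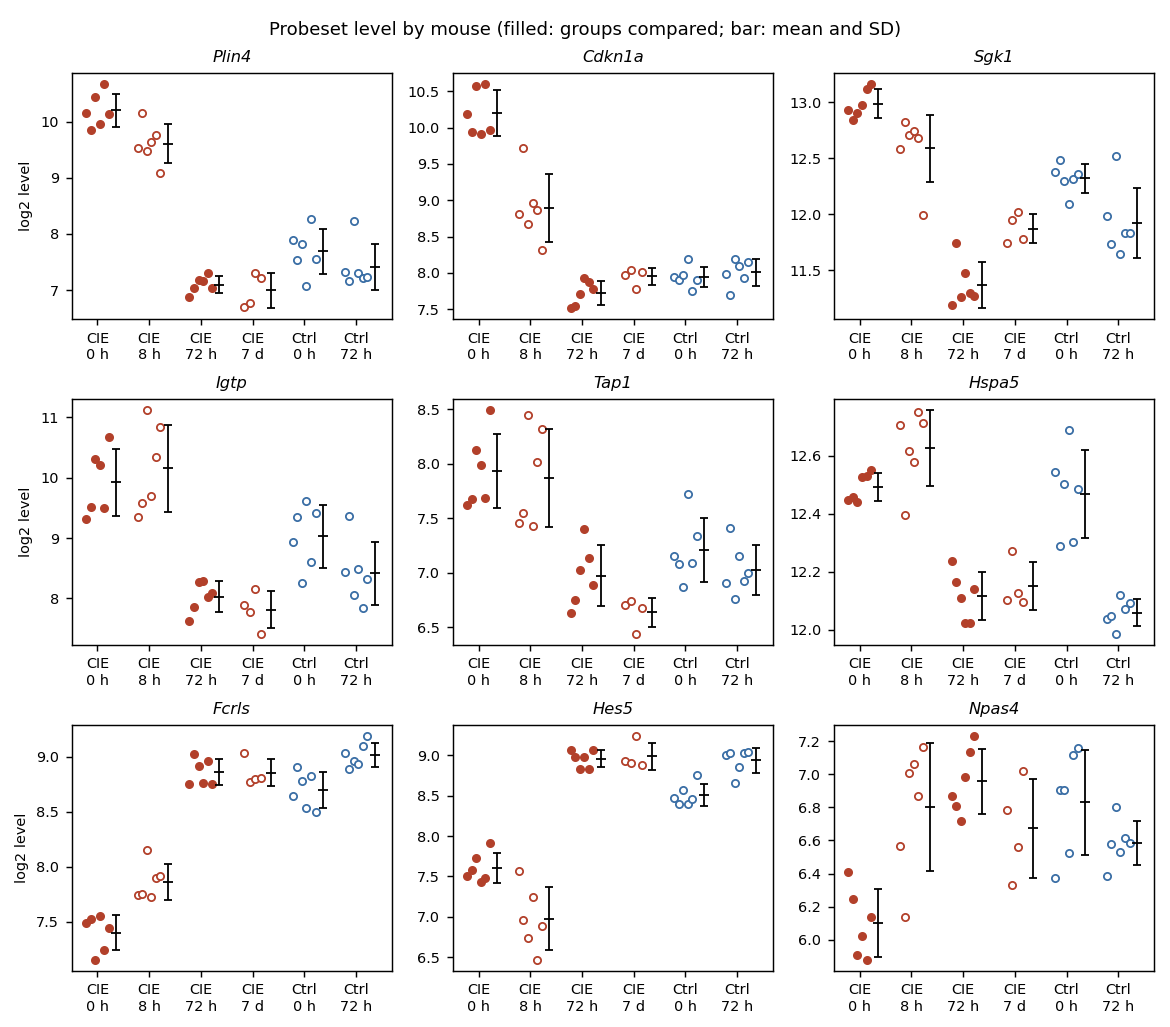
Log2 level (vertical axis) of 9 genes in each mouse of the CIE groups at 0 h, 8 h, 72 h and 7 d and of the Ctrl groups at 0 h and 72 h; filled points are the groups compared, and bars give the mean and SD. Plin4, Cdkn1a, Sgk1, Igtp and Tap1 are lower and Fcrls, Hes5 and Npas4 higher at 72 h than at 0 h in CIE mice, while Hspa5 drops alike in both treatments.

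Several large falls lay outside the glucocorticoid list. Ada, adenosine deaminase, which removes the sleep-promoting and neuromodulatory purine adenosine, was at 7.23 to 7.62 (median 7.45) at 0 h and at 5.32 to 5.77 (median 5.52) at 72 h. The groups were more than 1 log2 unit apart, the fall was 1.90 ± 0.16 (adjusted p = 1.5e-11), and Ctrl mice changed by 0.12. Gabrr2, the rho subunit of GABA receptors, was at 7.02 to 7.71 (median 7.41) at 0 h and 5.90 to 6.43 (median 6.18) at 72 h. It fell by 1.21 ± 0.16 without overlap (adjusted p = 4.9e-07; Ctrl 0.22). Of 19 genes for GABA receptors, synthesis and transport it was the one that fell, where 2.83% of all genes fell. At 72 h Ada and Gabrr2 were both below the array medians of 6.78 to 6.79, so these falls ended at low probeset levels. Txnip, an inhibitor of thioredoxin and of glucose uptake, fell by 0.93 ± 0.09 (adjusted p = 4.2e-10; Ctrl 0.14). Hmgb2, a chromatin protein of dividing cells and immature neurons, fell by 0.84 ± 0.08 (adjusted p = 1.1e-10; Ctrl 0.13), and Slc2a1, the glucose transporter of brain endothelium, by 0.56 ± 0.07 (adjusted p = 6.8e-08; Ctrl 0.05). Pik3ip1, a brake on PI3 kinase, fell by 0.49 ± 0.05, and the predicted gene Gm19439 by 1.60 ± 0.15. The time change of each of these 7 genes differed between treatments at an adjusted p of 0.01 or less. Counted as a list, 8 of 20 genes of the FOXO and KLF factors and of mTOR braking fell and 0 rose (median -0.26). Over all genes 2.83% fell. Of the 8 members, 4 (Ddit4, Klf15, Bcl6 and Klf9) are also in the glucocorticoid list.

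Interferon-stimulated genes formed another block of falls, with a wide spread between mice. Of 27 measured, 9 fell and 0 rose, where 2.83% of all genes fell (median change -0.41; Ctrl median 0.00), and of 12 genes for antigen presentation by MHC class I, 4 fell and 0 rose (median -0.44; Ctrl median 0.04). None of these genes passed in Ctrl mice, where 0.253% of all genes did, and none passed for the difference between treatments, so a difference from Ctrl is not shown for them. The interferon count was 5 without CIE 0 h replicate 26. The MHC class I count was 1 without any 1 of CIE 0 h replicates 26, 43 and 67 and CIE 72 h replicates 3, 29, 35 and 71, and 2 without CIE 72 h replicate 63.

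Igtp, a GTPase that interferon gamma induces against intracellular parasites, was at 9.32 to 10.68 (median 9.86) at 0 h and at 7.62 to 8.29 (median 8.05) at 72 h. The 0 h mice spanned more than 1 log2 unit, yet none reached down to a 72 h mouse. Igtp fell by 1.90 ± 0.32 (adjusted p = 4.6e-05), and its change in Ctrl mice was -0.61 (adjusted p = 0.45), and the -1.29 between the treatments was not past the threshold (adjusted p = 0.14). Irgm1, a GTPase of the same family, fell by 1.21 ± 0.25 (adjusted p = 5.5e-04), and its relative Iigp1 fell by 1.44 ± 0.31 (adjusted p = 0.0010), each without overlap. Gbp6, a guanylate-binding protein, fell by 1.49 ± 0.31 (adjusted p = 7.3e-04). H2-Aa, a chain of MHC class II, which presents antigen to helper T cells, fell by 1.61 ± 0.35 (adjusted p = 0.0012). Of its 3 further probesets 2 were called alike. Gbp6 and H2-Aa changed by -0.39 and -0.34 in Ctrl mice. A difference from Ctrl was not shown for either (limma, adjusted p = 0.21 and 0.19).

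Within antigen presentation, Tap1, a subunit of the pump that carries peptides into the endoplasmic reticulum, lay at 7.63 to 8.49 (median 7.84) at 0 h and 6.63 to 7.40 (median 6.96) at 72 h. It fell by 0.96 ± 0.21 without overlap (adjusted p = 0.0016), and 1 of its 3 further probesets had the opposite sign, uncalled. Nlrc5, the regulator of MHC class I transcription, fell by 1.17 ± 0.31 (adjusted p = 0.0076) and Psmb9, an immunoproteasome subunit, by 0.85 ± 0.22 (adjusted p = 0.0080), but these calls were lost without 7 and 9 of the 24 arrays left out in turn, with adjusted p of up to 0.032 and 0.031, both without CIE 0 h replicate 67. H2-K1, a class I heavy chain, changed by -0.54 ± 0.19 and did not pass (adjusted p = 0.053), although 2 of its 3 further probesets fell and the mean over its probesets passed (-0.61, adjusted p = 0.0055). Its level was 11.12 to 11.86 in 72 h CIE mice and 10.63 to 11.02 at 7 d, and in Ctrl mice 10.87 to 11.81 and 10.22 to 11.14.

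**Figure D4:**
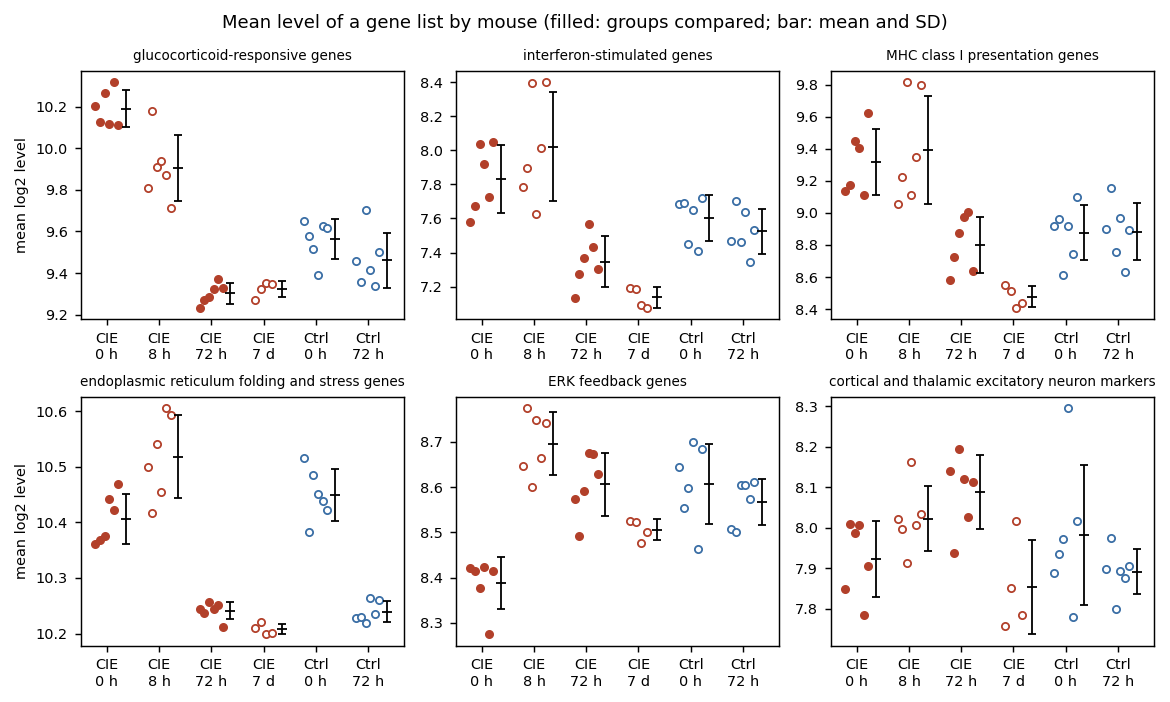
Mean log2 level over the members of 6 gene lists (vertical axis) in each mouse, in the order CIE 0 h, 8 h, 72 h and 7 d and Ctrl 0 h and 72 h; filled points are the groups compared, and bars give the mean and SD. The glucocorticoid list separates the 0 h and 72 h CIE mice, the interferon and MHC class I lists spread widely at 0 h and 8 h, and the endoplasmic reticulum list falls between 0 h and 72 h in CIE and Ctrl mice alike.

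A further group of changes was shared with the mice that breathed air. Endoplasmic reticulum folding genes fell in CIE mice in 7 of 22 cases (median -0.16), where 2.83% of all genes fell. In Ctrl mice 6 of 22 fell (median -0.14), where 0.253% of all genes were called. Between treatments 0 of the 22 differed. Sdf2l1, a partner of the chaperone BiP, fell by 0.61 ± 0.08 in CIE mice (adjusted p = 1.5e-07) and by 0.86 in Ctrl mice (adjusted p = 4.4e-10). Manf, a secreted survival factor of the same stress response, fell by 0.47 ± 0.05 and 0.56. Hspa5, which encodes BiP itself, was at 12.44 to 12.55 (median 12.49) at 0 h and 12.02 to 12.24 (median 12.13) at 72 h in CIE mice. Ctrl mice were at 12.29 to 12.69 (median 12.49) at 0 h and 11.99 to 12.12 (median 12.06) at 72 h. Both treatments thus dropped without overlap, by 0.38 ± 0.06 in CIE and 0.41 in Ctrl mice, with a difference of 0.03 ± 0.08 (adjusted p = 0.93).

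Of 18 genes of glutathione and thioredoxin defence, 4 fell in CIE mice, where 2.83% of all genes fell. Gstm1, a glutathione transferase, fell by 0.63 ± 0.06 in CIE (adjusted p = 6.7e-11) and 0.58 in Ctrl mice (adjusted p = 4.2e-09), with 3 further probesets called alike, and Srxn1 and Nqo1 fell by 0.40 ± 0.05 and 0.49 ± 0.09 in CIE mice, where the Ctrl changes of -0.20 and -0.27 did not pass. Among shared rises, Gpr17, a receptor of oligodendrocytes about to mature, rose by 0.56 ± 0.08 in CIE and 0.88 in Ctrl mice, Wfdc18 by 1.12 ± 0.10 and 0.73, and the transcript 4930506C21Rik by 0.80 ± 0.10 and 0.66. Slc1a3, an astrocytic glutamate transporter, rose by 0.20 ± 0.04 and 0.26, but the mean over its probesets did not pass in CIE mice (0.06, adjusted p = 0.60). Outside the naming rule and chosen after their values were seen, Gkn3 rose by 0.76 ± 0.10 and 0.58, and 9630013A20Rik, a non-coding transcript, fell by 1.10 ± 0.19 and fell by 1.21, in CIE and Ctrl mice in that order. The differences between treatments had standard errors of 0.08 for Gstm1 and 0.26 for 9630013A20Rik, so unequal changes of that size cannot be seen here.

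Fcrls, a receptor made almost only by microglia, had the largest rise. Its level was 7.15 to 7.55 (median 7.46) in 0 h CIE mice and 8.75 to 9.02 (median 8.84) at 72 h. The groups did not come near each other, and the 72 h mice lay among the Ctrl mice of 0 h and 72 h (8.50 to 8.91 and 8.89 to 9.19). Fcrls rose by 1.46 ± 0.08 (adjusted p = 2.2e-17; 2.75-fold), more than in Ctrl mice (0.32; difference 1.14, adjusted p = 6.9e-09). The rest of the microglial list did not move with it: of 17 markers, Fcrls and Olfml3 (0.50 ± 0.11, adjusted p = 0.0021) rose, where 4.25% of all genes rose. The other 15 did not pass, and the list's median change was 0.03. For Olfml3 the 2 CIE groups overlapped, and its difference from Ctrl did not pass (limma, adjusted p = 0.49). Fewer cells of a type and less RNA per cell cannot be told apart in such bulk tissue.

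Hes5, the best known target of Notch signalling in astrocytes and neural progenitors, was at 7.42 to 7.92 (median 7.54) at 0 h and 8.83 to 9.07 (median 8.98) at 72 h. It rose by 1.35 ± 0.11 without overlap (adjusted p = 6.6e-12), by 2.55-fold, and its other probeset rose too. In Ctrl mice the change was 0.43 (adjusted p = 0.069), smaller than in CIE mice (difference 0.92, adjusted p = 2.4e-04). Notch1, the receptor, rose by 0.30 ± 0.06 (adjusted p = 1.9e-04) and Hey1, a target in vessels and glia, by 0.23 ± 0.06 (adjusted p = 0.0075). These 3 were the members of 21 that passed, with 0 falling, where 4.25% of all genes rose. The median change of the list was 0.10 in CIE and 0.12 in Ctrl mice. For Notch1 and Hey1 a difference from Ctrl was not shown (limma, adjusted p = 0.17 and 0.82). Notch1 has another probeset of opposite sign and did not pass as the mean of both (0.13, adjusted p = 0.17), and Hey1 was lost without 9 of the 24 arrays left out in turn (adjusted p of up to 0.031, without CIE 0 h replicate 43). The Hes5 promoter is given because it holds 2 copies of GTGGGAA, the core that the Notch partner RBPJ binds (in capitals, once on each strand, 226 and 83 bases before the start), letters found in 6.38% of all windows.
Hes5, chr4:154960685-154960858, + strand: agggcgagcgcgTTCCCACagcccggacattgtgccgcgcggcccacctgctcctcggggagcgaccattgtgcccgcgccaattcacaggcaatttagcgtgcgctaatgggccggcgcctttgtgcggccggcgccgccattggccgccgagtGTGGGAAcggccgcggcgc

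Some genes that report neuronal activity were higher at 72 h. Npas4, an activity-dependent transcription factor, was at 5.88 to 6.41 (median 6.08) at 0 h and 6.72 to 7.23 (median 6.93) at 72 h, with no overlap. It rose by 0.86 ± 0.17 (adjusted p = 3.4e-04), with a difference from Ctrl of 1.10 (adjusted p = 0.0046). Arc, a synaptic protein whose RNA follows activity, rose by 0.82 ± 0.17 (adjusted p = 9.0e-04; difference from Ctrl 0.85, adjusted p = 0.049). Of 21 immediate early genes 3 rose (the third was Fosl2) and 2 fell (Btg2 and Jund). Over all genes 4.25% rose and 2.83% fell. The count of immediate early genes called was 3 without CIE 0 h replicate 26 or 57 or CIE 72 h replicate 63. Fos, the most used marker of recent activity, changed by 0.17 ± 0.14 (adjusted p = 0.51). The Fos level of the 0 h CIE mice, 7.99 to 8.71, was below that of all 0 h Ctrl mice (9.03 to 9.50), whereas at 72 h the treatments overlapped (8.41 to 8.87 and 8.43 to 8.72).

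Of 12 genes induced by the ERK pathway, most of which limit it, 5 rose and 1 fell (Dusp1, which is also in the glucocorticoid list). Over all genes 4.25% rose and 2.83% fell, and the median change of the 12 was 0.22. Dusp4, a nuclear phosphatase for ERK, rose by 0.69 ± 0.10 (adjusted p = 5.9e-06) and Spred3, a membrane inhibitor of the pathway, by 0.59 ± 0.07 (adjusted p = 2.2e-07), both without overlap and both differing from Ctrl. Spry4 rose by 0.44 ± 0.11, but this call was lost in 4 of 9 other settings. The count of members called was 3 when the fit used the 2 CIE groups alone, 3 without CIE 0 h replicate 26 or CIE 72 h replicate 63, and 2 without CIE 0 h replicate 57. Mycn, a growth-promoting transcription factor, rose by 0.79 ± 0.12 (adjusted p = 1.4e-05) while Ctrl mice changed by -0.29.

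Among cytosolic chaperones 5 of 19 rose and 1 fell, with small changes, where 4.25% of all genes rose and 2.83% fell. Hspa4 rose by 0.41 ± 0.08 (adjusted p = 7.3e-04), though 2 of its 3 further probesets had the opposite sign and the mean over its probesets did not pass (0.10, adjusted p = 0.41), and Hspb1, a small heat shock protein, by 0.31 ± 0.08 (adjusted p = 0.0056). Hspb8, its relative, fell by 0.56 ± 0.13 (adjusted p = 0.0016). With the neighbouring-region covariates described further on, the changes were 0.32 for Hspb1 and -0.43 for Hspb8 and neither passed (adjusted p = 0.012 and 0.013), and the list's count was 3. The Hspb1 promoter holds GAANNTTC, the core of the heat shock element, at 117 and 97 bases before the start (fixed letters in capitals). The core was in 7.86% of all windows and in those of 5 of the 6 called chaperone genes, the falling Hspb8 included.
Hspb1, chr5:135887790-135887841, + strand: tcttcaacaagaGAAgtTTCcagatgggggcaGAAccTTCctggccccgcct

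Markers of blood vessels rose in part. Of 16 endothelial markers 4 rose (Kdr, Emcn, Tek and Itm2a) and 1 fell (Slc2a1). Of 12 mural cell markers 2 rose (Kcnj8 and Vtn). Over all genes 4.25% rose and 2.83% fell. Kdr, the main receptor for VEGF, was at 7.65 to 7.80 (median 7.70) at 0 h and 8.06 to 8.35 (median 8.23) at 72 h, with no overlap. It rose by 0.52 ± 0.07 (adjusted p = 4.9e-07; difference from Ctrl 0.42, adjusted p = 0.0086), and Vtn by 0.37 ± 0.06 (adjusted p = 5.0e-05). The general endothelial markers Cldn5, Pecam1 and Cdh5 were not called, and the median change of the endothelial list was 0.16 (Ctrl 0.11). Of the called vessel markers, Kdr, Slc2a1 and Vtn differed from Ctrl in their time change. The difference did not pass for Emcn, Tek, Itm2a and Kcnj8 (limma, adjusted p = 0.23, 0.22, 0.61 and 0.023).

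Fabp7, the fatty acid carrier of radial glia and young astrocytes, rose by 0.96 ± 0.10 (adjusted p = 7.9e-09) and by 0.51 in Ctrl mice, where it narrowly missed the threshold (adjusted p = 0.01). Mcm5, part of the replication helicase, rose by 0.75 ± 0.13 (adjusted p = 4.1e-05), although 1 of its 2 other probesets had the opposite sign. Of 24 genes of replication and division 3 rose (Mcm5, Mcm6 and Ccnd1) and 3 fell (Cdkn1a, Hmgb2 and Cdkn1c). Over all genes 4.25% rose and 2.83% fell. Cdkn1a and Cdkn1c are inhibitors of the cell cycle, and the proliferation markers Mki67 and Top2a did not pass. Serpinb1a, a protease inhibitor, rose by 0.96 ± 0.13 (adjusted p = 1.1e-06).

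Of the chromatin and splicing genes 21.9% and 17.2% were called, where 7.08% of all genes were, and most of the called ones were higher. Of 32 chromatin modifiers 6 rose and 1 fell (Kat2b, an acetyltransferase, by 0.35 ± 0.07), and of 29 splicing genes 5 rose and 0 fell, where 4.25% of all genes rose and the medians of the lists were 0.06 and 0.08. Hdac9 rose by 0.44 ± 0.08 (adjusted p = 6.9e-05) and Smarce1, a remodelling subunit, by 0.35 ± 0.04 (adjusted p = 4.8e-08). Both of Smarce1's further probesets had the opposite sign, as did 4 of 5 for the splicing factor Sfpq (0.29 ± 0.06), so these calls rest on the brightest probeset. As means over probesets, 3 chromatin genes and 3 splicing genes were called, and the splicing count was 3 without CIE 0 h replicate 57 or CIE 72 h replicate 61.

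A few myelin genes fell. Of 20, 4 fell and 0 rose, where 2.83% of all genes fell, and the median change of the list was -0.19 (Ctrl 0.09). Mal, a protein of compact myelin, was at 13.12 to 13.27 (median 13.20) at 0 h and 12.84 to 12.93 (median 12.91) at 72 h. The 2 ranges did not touch and the fall was 0.32 ± 0.05 (adjusted p = 5.2e-05; difference from Ctrl -0.37, adjusted p = 0.0035). Opalin fell by 0.34 ± 0.08 and Tspan2 by 0.27 ± 0.07, but with markers of neighbouring regions as covariates the list's count was 1 (2 without CIE 0 h replicate 43 or 67 or CIE 72 h replicate 71 in the model as written), and Opalin had the opposite sign as the mean of its 2 probesets (0.01, adjusted p = 0.97). Of 23 genes of cholesterol and fatty acid synthesis 3 fell, where 2.83% of all genes fell, and 0 of the 23 differed from Ctrl. Among the 3, Insig1, the sterol sensor, fell by 0.58 ± 0.08 (adjusted p = 1.4e-06) and the desaturase Scd1 by 0.41 ± 0.06 (adjusted p = 5.2e-06).

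Of 21 clock genes 3 rose and 2 fell, where 4.25% of all genes rose and 2.83% fell. The count called was 3 without CIE 0 h replicate 26 or CIE 72 h replicate 63. The rises were Bhlhe40, Per2 and Rorb. As the mean of its probesets Rorb had the opposite sign (-0.04, limma, adjusted p = 0.85). Ciart, a repressor of the clock, was at 8.30 to 8.62 (median 8.41) at 0 h and 7.90 to 8.10 (median 8.01) at 72 h in CIE mice, without overlap. It fell by 0.42 ± 0.08 (adjusted p = 1.5e-04) while Ctrl mice changed by 0.29 (adjusted p = 0.093), so the 2 changes had opposite signs (difference -0.71, adjusted p = 6.7e-05). At 72 h the ranges of the treatments overlapped (7.90 to 8.10 in CIE and 7.89 to 8.35 in Ctrl mice), and at 0 h they did not (8.30 to 8.62 and 7.65 to 7.92). Per2 rose by 0.30 ± 0.07 in CIE and changed by 0.28 in Ctrl mice. The Ciart promoter is printed because CACGTG, the E-box to which the clock's activators bind, occurs 3 times in it (in capitals, 116, 58 and 44 bases before the start), where 7.15% of all windows hold it at all.
Ciart, chr3:95882255-95882356, - strand: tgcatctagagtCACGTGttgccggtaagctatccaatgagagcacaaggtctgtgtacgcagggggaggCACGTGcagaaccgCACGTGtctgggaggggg

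Some rises were no longer called once the levels of neighbouring-region markers were in the model. Tnnt1, a troponin, was at 5.85 to 6.73 (median 6.03) at 0 h and 6.14 to 8.29 (median 7.44) at 72 h, and the groups overlapped. It rose by 1.23 ± 0.29 (adjusted p = 0.0028). Cck, the peptide cholecystokinin, rose by 0.97 ± 0.25 (adjusted p = 0.0067), the transcription factor Lef1 by 0.66 ± 0.17 (adjusted p = 0.0085), Zic1, a transcription factor that is one of the BNST genes of the tissue check, by 0.42 ± 0.10 (adjusted p = 0.0042), and the calcium channel Cacna1g by 0.54 ± 0.12 (adjusted p = 0.0021). Of the 15 cortical and thalamic neuron markers 2 rose (Lef1 and Rorb), with a mean level over the list of 7.78 to 8.01 at 0 h and 7.94 to 8.19 at 72 h. Of 15 striatal markers 0 passed, 14 had a negative change (median -0.20), and their mean lay at 9.77 to 10.65 and 9.67 to 10.14. Over all genes 4.25% rose and 2.83% fell. With both list levels as covariates, an alternative added after the data were seen, the change was 0.87 for Tnnt1 (adjusted p = 0.026), 0.68 for Cck (0.034), 0.22 for Zic1 (0.061) and 0.26 for Cacna1g (0.035), all still positive and none past the threshold. Lef1 is itself in the cortical and thalamic list, so its value of 0.41 (0.067) is lowered by construction, while the glucocorticoid count was 25. Without CIE 72 h replicate 3 the adjusted p of Tnnt1 was 0.013, and without CIE 0 h replicate 67 that of Cacna1g was 0.011. Cck, Lef1 and Zic1 were lost without 7, 10 and 5 of the 24 arrays, and the cortical and thalamic count was 0 without CIE 0 h replicate 17, 26 or 67 or CIE 72 h replicate 35 or 63. The part of dissection in these rises was not tested further.

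Several lists of neuronal genes had a smaller share of called members than the 7.08% of all genes. Of 36 BNST neuropeptides and their receptors Cck was the one called, and Crh, the stress peptide that the BNST is known for, changed by -0.19 ± 0.20 (adjusted p = 0.63), from 9.96 to 10.76 at 0 h to 9.80 to 10.56 at 72 h. Oprk1, the kappa opioid receptor, changed by -0.07 ± 0.08, Bdnf by 0.18 ± 0.14 and Chat, the enzyme of acetylcholine synthesis, by -0.04 ± 0.10, with adjusted p of 0.68, 0.49 and 0.88. None of 25 glutamate receptor and scaffold genes, 17 monoamine and cannabinoid receptors, 9 cholinergic genes, 28 respiratory chain subunits, 30 proteasome subunits or 10 complement genes was called. In all 9 of 43 lists had no called member, 9 had falls without rises, 13 rises without falls and 12 both. Ttr, the carrier made by the choroid plexus, ranged from 8.09 to 10.49 at 0 h and from 8.67 to 10.86 at 72 h, with no difference past the threshold (adjusted p = 1.0), and 1 of 16 choroid plexus and ependymal markers was called (Foxj1, -0.38 ± 0.09), which is near the share over all genes. Slc32a1, the vesicular GABA transporter, rose by 0.23 ± 0.06 (adjusted p = 0.0056), a call lost without 8 of the 24 arrays left out in turn (adjusted p of up to 0.027, without CIE 72 h replicate 63).

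**Figure D5:**
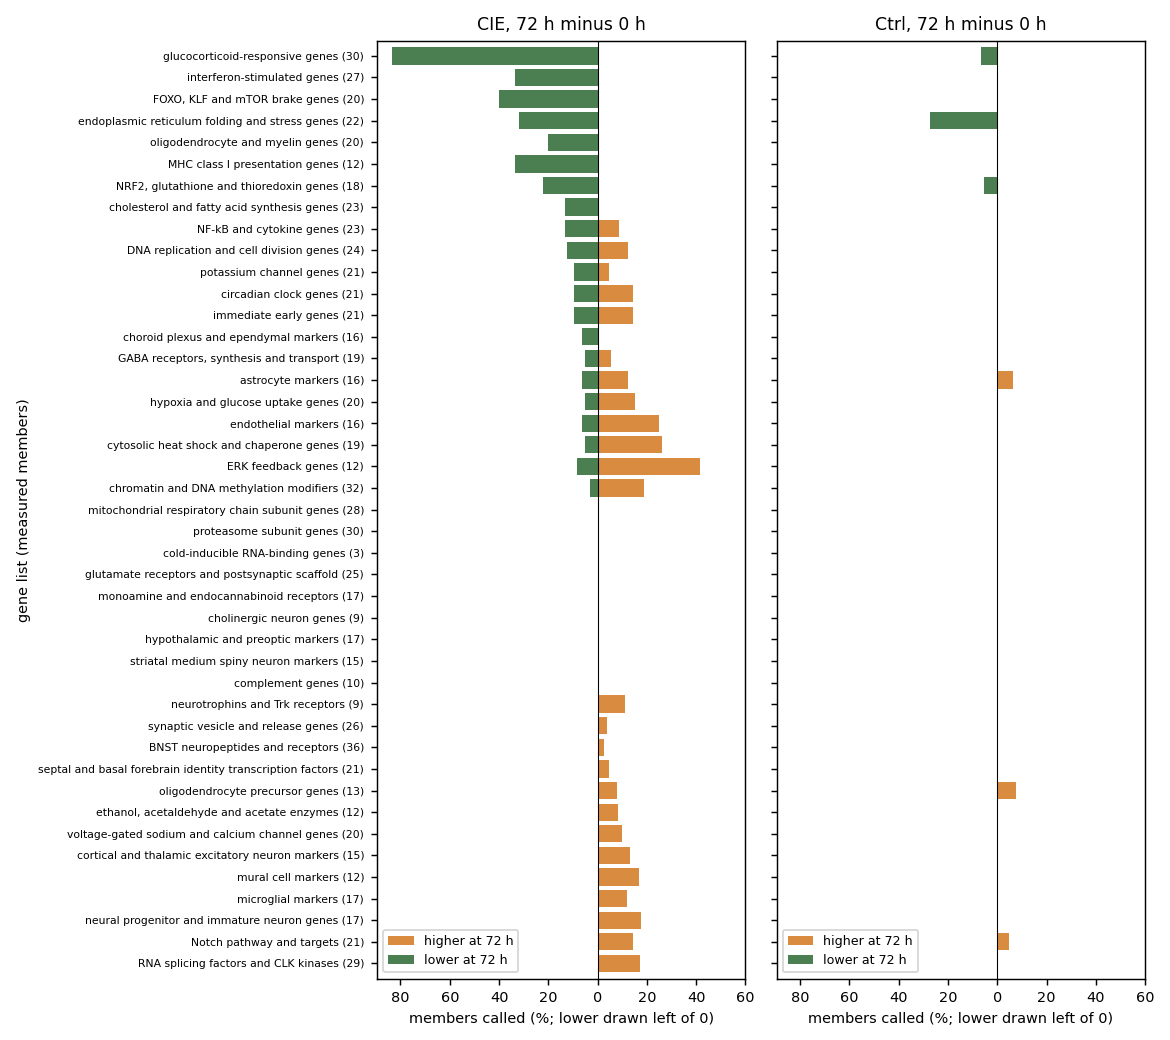
Share of the measured members of each of 43 gene lists (vertical axis, number of measured members in brackets) called higher (orange, to the right) or lower (green, to the left) at 72 h than at 0 h, in percent (horizontal axis), for CIE mice on the left and Ctrl mice on the right. The glucocorticoid list has the longest bar in CIE mice, with 83.3% of members lower, and 6 lists have a bar in Ctrl mice, the longest of them for the endoplasmic reticulum.

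The intermediate group shows how far each change had gone by 8 h, as the difference between the group means at 8 h and 0 h over that between 72 h and 0 h, with no test. Over the 514 falling genes the median share was 42.9% (quartiles 9.36% and 70.8%), and over the 774 rising genes 63.9% (43.2% and 83.6%). The 27 genes that fell more than 2-fold had a median of 27.7%, and 8 of them had moved the other way at 8 h. The 25 called glucocorticoid genes had a median of 42.8%. Glucocorticoid genes differed among themselves: Plin4 had covered 19.1% of its fall, Sult1a1 6.56%, Htra1 5.93% and Sgk1 24.7%, whereas Cdkn1a had covered 52.8% and Fkbp5 53.4%. Ada had covered 70.0% and Pik3ip1 79.2%. Of the 9 falling interferon genes 7 had a higher mean at 8 h than at 0 h, and 0 were past the middle of their fall, with Igtp at 9.34 to 11.12 (median 10.02) at 8 h. Ctrl mice had high values at 8 h as well, with Igtp at 8.29 to 10.96 (median 10.03) against 8.26 to 9.61 (median 9.14) at 0 h, and an interferon list mean of 7.31 to 8.35 against 7.41 to 7.72. Hes5 was at 6.47 to 7.57 (median 6.93) at 8 h, with 5 of the 6 mice below every 0 h mouse. Dusp4, Spred3, Hspb1 and Hmgb2 had moved by 131%, 101%, 159% and 125% of their 72 h change by 8 h, as far as or beyond the level at 72 h.

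At 7 d, in 4 CIE mice and with no test, some of the largest changes were still seen and others were not. Plin4 was at 6.69 to 7.31, Cdkn1a at 7.77 to 8.03, Fcrls at 8.77 to 9.03 and Hes5 at 8.88 to 9.24. Sgk1 was at 11.75 to 12.02 at 7 d, above 5 of the 6 mice of 72 h. Fabp7 went on to 10.52 to 10.59 at 7 d, above all 72 h mice, and Gjb6, the connexin of astrocytes, which fell by 0.62 ± 0.08 to 10.58 to 10.79 at 72 h, was at 10.11 to 10.57, below all of them. The mean level over the MHC class I list had a median of 8.80 over the 72 h mice and lay at 8.41 to 8.55 at 7 d, below all of the 72 h mice. Ctrl mice showed a like step, from 8.63 to 9.15 at 72 h to 8.16 to 8.56 at 7 d. Among the largest rises, Tnnt1 was at 5.80 to 6.81 at 7 d, within or near its 0 h range, and Cck at 8.65 to 9.97, Ubash3b at 9.71 to 10.85 and Mycn at 7.21 to 7.75 had means below those of 72 h by 0.70, 0.51 and 0.43.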

How the data were processed

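The 46 arrays (Affymetrix mouse expression arrays) were each from the BNST of 1 mouse, in 8 groups of treatment (CIE or Ctrl) and time (0 h, 8 h, 72 h, 7 d), grouped by the sample titles, with 6 mice per group except CIE at 7 d (4). The deposited values were log2 expression values that the authors made with RMA (background correction, quantile normalization within hybridization batches), a further quantile normalization over all arrays and ComBat for the batch. Batch adjustment of this kind removes differences between batches and narrows the spread within groups, and because the sources used here do not give the batch of an array, batch could not be tested. The number of arrays limits the precision.

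All 45037 probesets were fitted with limma 3.58.1 (R 4.3.3; lmFit and eBayes, two-sided), with 8 group means, 38 residual and 3.94 prior degrees of freedom. The contrasts were 72 h minus 0 h in CIE mice, the same in Ctrl mice, and the difference between them, with Benjamini-Hochberg adjustment over all probesets and calls at an adjusted p of 0.01 or less. All SEs come from this model. Names were taken from the platform annotation: 34945 probesets had 1 symbol, 932 several and 9160 none. The probeset with the highest mean stood for each of 18193 genes.

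Genes were named by a rule: the 12 largest called rises and 12 largest called falls, up to 3 called members of each list by size, 16 genes fixed by name, and the 8 genes with the lowest p for the difference between treatments. Other genes named were chosen after their values were seen, among them called members given to complete a list's count. The members and the 43 gene lists (834 measured genes) were chosen with earlier results of these data known. Motifs were searched on both strands of 32851 RefSeq promoter windows (GRCm38.p6). The model was tested on simulated data. Alternatives were the 2 groups or the 4 groups at 0 h and 72 h alone, array medians aligned, array weights, 2 residual components, the probesets above the median level, an intensity trend with a robust prior, the mean of a gene's probesets, each array left out and, added after the data were seen, markers of neighbouring regions as covariates.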

Additional observations from a re-analysis of the deposited data

Results flagged for a closer look

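In 14 of 228 groups of values tested, 1 mouse lay far from the rest of its group by Dixon's criterion, which chance alone meets in about 1 in 20 groups. Of the 0 h CIE mice, replicate 19 stood apart for Tnnt1 (log2 level 6.73), Arc (7.78), Slc2a1 (11.46), Slc32a1 (11.82) and Kcnk2 (9.96). Replicate 67 of the same group stood apart for Manf (11.03), Cd24a (8.25) and Ttr (8.09), replicate 26 for Cxcl12 (9.03) and replicate 17 for Oprk1 (8.05). Of the 72 h CIE mice, replicate 71 stood apart for Gpr17 (9.32), replicate 61 for Sox2 (10.85), replicate 63 for Lcn2 (4.57) and replicate 35 for 9630013A20Rik (5.89).

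For 39 named genes the change from 0 h to 72 h differed between CIE and Ctrl mice in limma's test of the difference, at an adjusted p of 0.01 or less. The values below are CIE change minus Ctrl change on the log2 scale. Among glucocorticoid-responsive genes the differences were -2.83 for Plin4, -2.54 for Cdkn1a, -1.94 for Arrdc2, -1.38 for Zbtb16, -1.24 for Pdk4, -1.22 for Sgk1, -1.16 for Sult1a1, -1.05 for Ddit4, -0.93 for Cebpd, -0.88 for Htra1, -0.77 for Nfkbia, -0.74 for Tsc22d3 and -0.70 for Fkbp5. Other negative differences were -2.02 for Ada, -1.67 for Gm19439, -1.43 for Gabrr2, -1.07 for Txnip, -0.97 for Hmgb2, -0.71 for Ciart, -0.61 for Slc2a1, -0.55 for Pik3ip1, -0.37 for Mal and -0.30 for Kcnk2.

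Differences were positive for 16 genes. They were 1.92 for Tnnt1, 1.14 for Fcrls, 1.10 for Npas4, 1.08 for Mycn, 0.92 for Hes5, 0.74 for Dusp4, 0.61 for Kcnj9, 0.57 for Hdac9, 0.56 for Cd24a and 0.52 for P4ha1. Smaller ones were 0.52 for Spred3, 0.42 for Kdr, 0.41 for Vtn, 0.39 for Sfpq, 0.38 for Cacna1a and 0.27 for Smarce1. As means over probesets the CIE changes of Kcnj9 (0.15), P4ha1 (0.15) and Smarce1 (0.08) did not pass (limma, adjusted p = 0.29, 0.45 and 0.11). Those of Hdac9 and Cd24a did not pass either (limma, adjusted p = 0.011 and 0.013), and that of Sfpq turned sign.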

How the results depend on the processing

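The count of probesets called in CIE mice (2735) was 5562 with 2 residual components and 5250 with array weights, and 1944 to 3085 without 1 array (lowest without CIE 0 h replicate 57). The Ctrl count (78) was 12 with the 2 groups alone, 643 with 2 residual components, 51 with array weights, and 49 to 104 without 1 array (lowest without Ctrl 0 h replicate 56). The count for the difference between treatments (445) was 1055 with 2 residual components and 303 to 573 without 1 array. Every other setting left the 3 counts within 1.5 times of these values, among them 2637 in CIE mice with neighbouring-region covariates.

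Of 100 named genes called in CIE mice, 74 were called without each of 24 arrays in turn. The number lost was 21 with neighbouring-region covariates, 14 with the mean of a gene's probesets, 11 with the 2 groups alone, 9 with 4 groups, and 0 with aligned medians, array weights, 2 residual components or an intensity trend. Signs turned with the mean of probesets for Opalin (0.0116), Rorb (-0.0386), Sfpq (-0.000488), Ntrk2 (-0.0385) and Gad2 (-0.213), with neighbouring-region covariates for Bdnf (-0.0230), and without 1 array for Ttr (range -0.323 to 0.203) and Lcn2 (-0.0499 to 0.0987, negative without CIE 72 h replicate 63). The causes were not tested. Glucocorticoid genes called were 24 to 27 of 30 under all settings, and interferon genes 5 to 12 of 27. No paired analysis was possible because the replicate numbers in the titles belong to single mice and the groups share none.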
